A study of Mus musculus with 2 samples.

Results

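Histone-rich S-phase retinal progenitors are embryonic retinal progenitor cells caught with high RNA of the replication-dependent histone genes. They were chosen by measured values, the unique molecular identifier (UMI) counts of 12 genes in each cell. A cell was kept with at least 500 detected genes and at most 10% mitochondrial UMIs, and then needed at least 1 UMI of Fgf15, at least 3 of Sfrp2, at most 2 of Atoh7, none of Gja1 or Otx1, fewer than 10 summed over the mitotic genes Cenpf, Ube2c, Ccnb1, Cdc20 and Plk1, and at least 3 summed over the histone genes Hist1h1b and Hist1h2ae. The rule found 749 cells of 9395 kept cells in all, 449 of 5883 in the pigmented library and 300 of 3512 in the albino library.

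The study measured RNA of single sorted cells in peripheral retina, the ciliary margin zone included, of E13.5 mouse embryos. Each of the 2 libraries came from 3 pooled embryos. The series' design text names α-Cre;Td mice. Both libraries thus came from embryos with the α-Cre transgene, which acts in peripheral retina, and a TdTomato reporter (Td), and the TdTomato-positive cells were taken by flow sorting. The library titled pigmented bears the strain label Tyrc2j, a name otherwise known for an albino allele, and the library titled albino bears the strain label Swizz ICR. The titles were followed here, and that conflict was not settled. Pigmentation, strain, embryo pool and library cannot be told apart, so no test between the groups was possible, and every interval below covers counting error only.

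Retinal progenitors are the dividing cells that give rise to all neurons and the Müller glia of the retina. During S phase a cell copies its DNA and must wrap the copy in new histones, and the genes for these histones sit in clusters and are switched on together when replication starts. Their messenger RNAs mostly end in a short stem-loop in place of a poly(A) tail, bind the stem-loop binding protein Slbp there, and are degraded when DNA synthesis stops. Libraries primed on poly(A) capture such RNAs less well than others, so a histone level below is a level among captured RNA and is compared between cell groups rather than between genes.

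The histone stem-loops are shown because they mark this kind of gene, and because 2 genes that did not go with the others, Hist3h2ba and Hist3h2a, carry the same letters. Of the 67 replication-dependent histone genes, 54 lie on chromosome 13 between 21715763 and 23934851, 10 on chromosome 3 between 96219865 and 96270132, 2 on chromosome 11 between 58948920 and 58956830 and 1 on chromosome 6 (GRCm38, GENCODE M21). Of the 50 with at least 50 UMIs in the histone-rich S progenitors, 37 had the stem-loop in an annotated transcript and 13 did not. A transcript annotated too short cannot show it. Of those 37 genes, 22 shared the letters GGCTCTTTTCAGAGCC. The search took 16 letters on the transcript's strand, from GG to CC. Between them came C or T 3 times, TT, any letter but G, T, any letter, A, and A or G 3 times. The last match in a transcript was used. Capitals mark the stem-loop, with up to 5 flanking bases on each side.
Hist1h2ae (a gene of the rule, H2A): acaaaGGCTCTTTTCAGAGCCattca
Hist1h2ap (H2A): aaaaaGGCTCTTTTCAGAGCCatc
Hist1h1e (linker histone H1): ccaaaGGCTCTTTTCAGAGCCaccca
Hist1h3e (H3): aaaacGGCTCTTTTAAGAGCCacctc
Hist1h4d (H4): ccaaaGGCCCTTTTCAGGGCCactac
Hist3h2ba (H2B, chromosome 11): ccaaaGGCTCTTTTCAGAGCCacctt
Hist3h2a (H2A, chromosome 11): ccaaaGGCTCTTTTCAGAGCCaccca

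The promoters of the 2 histone genes of the rule and of the topoisomerase gene Top2a are shown because their RNAs were high in the same cells. They run from 250 bases before to 50 after the start (RefSeq, GRCm38.p6). Capitals mark the searched motifs, which are CCAAT, the octamer ATGCAAAT, the TATA box as TATAAA or TATATA, and the H1 box AAACACA, each on either strand. The TATAAA and TATATA matches can overlap. In the Hist1h2ae stretch the marked TTTATA and ATGCAAAT begin at letters 109 and 123 of 300, and the start follows letter 250. Whether they belong to this gene or to a neighbour on the other strand was not tested.
Hist1h1b, chr13:21780576-21780875, minus strand: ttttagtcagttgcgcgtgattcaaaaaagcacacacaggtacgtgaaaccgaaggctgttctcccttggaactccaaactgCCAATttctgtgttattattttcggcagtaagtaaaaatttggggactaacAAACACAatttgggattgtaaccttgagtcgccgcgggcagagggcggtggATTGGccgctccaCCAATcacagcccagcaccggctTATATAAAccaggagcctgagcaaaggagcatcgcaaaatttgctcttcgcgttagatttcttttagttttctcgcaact
Hist1h2ae, chr13:23571171-23571470, minus strand: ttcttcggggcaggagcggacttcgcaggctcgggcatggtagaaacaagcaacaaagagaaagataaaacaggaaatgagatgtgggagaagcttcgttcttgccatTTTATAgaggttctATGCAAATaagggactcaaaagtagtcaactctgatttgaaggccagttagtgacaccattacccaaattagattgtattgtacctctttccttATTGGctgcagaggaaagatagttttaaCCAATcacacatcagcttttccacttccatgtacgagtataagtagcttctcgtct
Top2a, chr11:99024140-99024439, minus strand: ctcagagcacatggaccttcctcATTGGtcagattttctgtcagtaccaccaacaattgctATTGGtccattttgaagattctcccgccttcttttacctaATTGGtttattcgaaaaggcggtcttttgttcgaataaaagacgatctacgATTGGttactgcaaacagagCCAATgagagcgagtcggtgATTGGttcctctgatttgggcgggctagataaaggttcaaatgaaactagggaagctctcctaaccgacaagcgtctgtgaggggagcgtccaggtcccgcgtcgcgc

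RefSeq promoters were matched for 45 of those 50 histone genes. CCAAT stood in 40 of the 45 (88.9%), against 37.9% of 27025 promoters of the same length. It stood in all matched H1, H2A, H2B and H3 promoters but in only 3 of 8 H4 promoters (37.5%), near the share of all promoters. The TATA letters stood in 31 (68.9% against 17.8%). ATGCAAAT stood in 10 (22.2% against 1.75%), in 5 of 12 H2A and 5 of 13 H2B promoters and in none of the H1, H3 or H4 promoters. AAACACA stood in 4 of 5 H1 promoters, against 7.14% of all promoters. The letters TTTCCCGC or TTTCGCGC or TTTGGCGC are known as sites of the E2F factors that switch on S-phase genes. They stood in 9 histone promoters (20%, against 1.91% of all). These were 4 of 12 H2A, 4 of 13 H2B and 1 of 8 H4 promoters, and none of the H1 or H3 promoters. They stood in 9 of 19 matched promoters of replication-origin genes (47.4%) and in 7 of 24 of replication-fork genes (29.2%). Of matched nucleotide supply promoters 0 of 15 had them, and of the G2/M list 1 of 21. CCAAT stood 6 times in the Top2a promoter and in 16 of 21 matched promoters of the G2/M list (76.2%). Histone genes lie close together, so the stretches of neighbouring H2A and H2B genes can overlap and the same match can count for both. How often that occurred was not measured. These are matches of letters and show no binding.

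The deposited count tables held 69965728 UMIs in the pigmented and 46271969 in the albino library over 32285 genes, and the kept cells had a median of 10448 and 11239 UMIs. The libraries shared 8 barcodes, of which 0 pigmented and 2 albino histone-rich S progenitors had one. Histone-rich S progenitors had a median of 9564 pigmented and 10040 albino UMIs per cell, 3149 and 3176 detected genes, and 1.19% and 0.956% mitochondrial UMIs. A doublet caller marked 1 of these cells in each library.

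The cells carried progenitor RNA, as their label says, and less RNA of most other types than the kept cells outside the 3 progenitor groups described here. Pax6, Rax, Lhx2, Six6, Sox2 and the rest of the 17 retinal progenitor genes were all detected, and their summed level was 4234 counts per 1000000 UMIs (CPM) in pigmented and 4204 CPM in albino cells, against 2576 and 2295 CPM in the kept cells outside those groups. The 12 ganglion cell markers summed to 249 and 351 CPM, against 5127 and 8282 CPM in the kept cells outside, with none of the 12 at 0. The 16 neurogenic genes summed to 909 and 810 CPM, against 3316 and 3160 CPM outside. The 12 ciliary margin genes summed to 470 and 481 CPM, below the 592 CPM outside in the pigmented library and above the 380 CPM in the albino library. Photoreceptor precursor markers summed to 33.8 and 30.1 CPM, with 2 and 1 of 6 at 0. Amacrine or horizontal cell markers summed to 25.2 and 34.8 CPM, with 1 of 7 at 0. The 8 pigment epithelium markers summed to 11.3 and 7.91 CPM with 3 at 0. The 8 surface ectoderm and lens markers summed to 15.0 and 8.55 CPM with 4 at 0, and the 11 blood and vessel markers summed to 49.4 and 35.8 CPM with 3 and 8 at 0. The 6 mesenchyme markers summed to 57.8 CPM with 0 at 0 in pigmented and to 42.7 CPM with 2 at 0 in albino cells.

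A further pair of sets of cells passed the same progenitor gates and served for comparison. Histone-poor progenitors had fewer than 3 UMIs of Hist1h1b and Hist1h2ae together (820 pigmented and 367 albino cells), and progenitors with G2/M RNA had at least 10 mitotic UMIs, at any histone count (466 and 218 cells). Median depth was 8310.5 and 8411 UMIs in the histone-poor progenitors and 12061 and 12475 UMIs in those with G2/M RNA. Levels are given below as CPM of the summed cells of a group, which scales each level to the group's total UMIs. The gates use raw UMIs, so which cells fall in a group can still go with depth.

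Histone-rich S progenitors made up 25.9% of pigmented (95% Clopper-Pearson interval 23.8 to 28.01) and 33.9% of albino progenitors (30.8 to 37.1). The albino share was 1.31 times the pigmented share (1.16 to 1.48). Histone-poor progenitors were 47.3% of pigmented and 41.5% of albino progenitors, and those with G2/M RNA 26.9% and 24.6%. As a share of all kept cells, histone-rich S progenitors were 7.63% (6.97 to 8.34) in the pigmented and 8.54% (7.64 to 9.52) in the albino library, with a ratio of 1.12 (0.973 to 1.29). With every cell thinned to 5000 UMIs and the gates applied again, the shares of progenitors were 31.1% and 38.6%. Thinning left out 369 pigmented and 297 albino kept cells, 21 and 27 of them histone-rich S progenitors. With 1 library per group, none of these differences has a replicate check.

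RNA of the 2 histone genes of the rule ranged over progenitors from none to over 100 UMIs, with no gap between. Hist1h1b, a linker histone (chr13:21779883-21780625, minus strand), and Hist1h2ae, a core H2A histone (chr13:23570517-23571220, minus strand), together had a median of 25 UMIs in pigmented and 19.5 UMIs in albino histone-rich S progenitors. The quartiles were 7 and 43 UMIs in the pigmented and 7 and 41 UMIs in the albino library, and the highest cells had 105 and 125 UMIs. Of progenitors under the mitotic limit, 38.8% of pigmented and 30.7% of albino cells had 0 UMIs of the pair. Cells per single UMI value went down from 57 at 3 UMIs to 7.25 at 6 to 9, 6.6 at 10 to 19, 6.1 at 20 to 39 and 3.1 at 40 to 79 UMIs in the pigmented library. They went from 26 to 8.75, 6.0, 3.5 and 1.7 in the albino library. Per UMI value the counts thus had a long tail with no second peak in these bins, and the limit of 3 UMIs cuts a continuous range. The bins widen, and whole bins read otherwise. In the pigmented library 2.29% of cells had 6 to 9 UMIs, 9.61% had 20 to 39 and 9.77% had 40 to 79. In the albino library these were 5.25%, 10.5% and 10.0%. Whether the cells form separate populations was not tested.

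**Figure D1:**
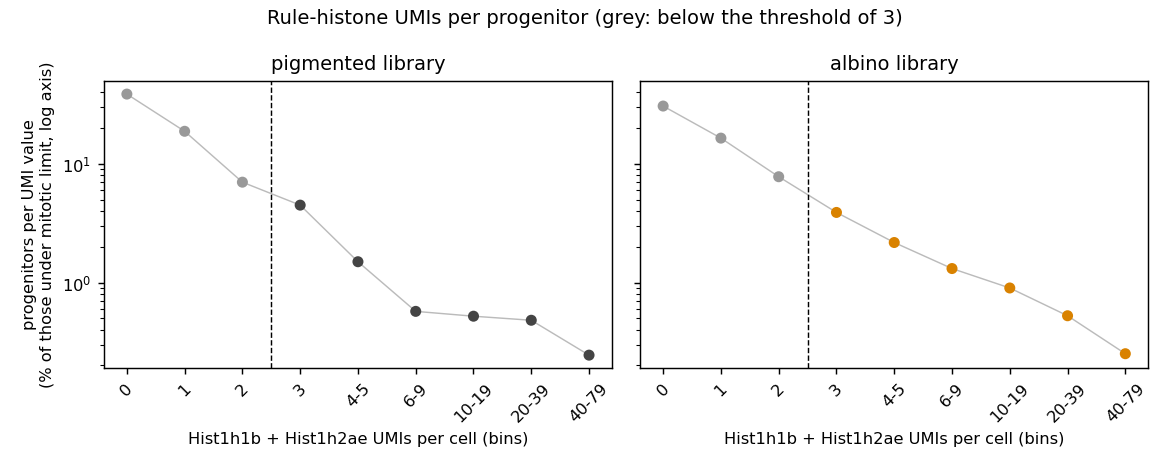
Share of progenitors under the mitotic limit per single UMI value (y axis, percent, log axis) by UMIs of Hist1h1b plus Hist1h2ae per cell (x axis, bins up to 79 UMIs, each share divided by its bin's number of UMI values), with grey points below the limit of 3 UMIs (dashed line), for each library. Both libraries drop steeply from 38.8% and 30.7% at 0 UMIs and then go on down in a long tail.

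The 89 pigmented cells with 2 UMIs of the pair had 1008 CPM of all other replication-dependent histones, and the 57 with 3 UMIs had 1107 CPM. The 52 and 26 such albino cells had 1229 and 1189 CPM. Cells just inside the rule were thus close to those just outside it in other histone RNA. At the mitotic limit, cells with 9 and 10 mitotic UMIs had 6401 and 6040 CPM of other histones in the pigmented and 7591 and 7715 CPM in the albino library, over 11 to 17 cells each. Few ganglion cells had RNA of the pair. Of 599 pigmented cells 2.003% (1.04 to 3.47) and of 581 albino cells 2.93% (1.71 to 4.64) reached 3 UMIs. Their median depths were 12071 and 13414 UMIs, and the highest cells had 104 and 131 UMIs of the pair. Ganglion cells, which no longer divide, were taken here as cells with at least 2 UMIs of Pou4f2, at least 2 of Isl1 and none of Fgf15. The limit on Fgf15 can leave out cells with stray progenitor RNA, so these shares do not measure free RNA of the pair. Among progenitors with G2/M RNA, 70.4% of pigmented (66.0 to 74.5) and 65.1% of albino cells (58.4 to 71.4) reached 3 UMIs.

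The other replication-dependent histone genes were high in the same cells, nearly all of them together. Their summed level, without the 2 genes of the rule, was 5720 CPM in pigmented and 5547 CPM in albino histone-rich S progenitors, against 881 and 970 CPM in histone-poor progenitors. The ratio was 6.49 (6.32 to 6.67) in the pigmented and 5.72 (5.51 to 5.95) in the albino library. A gene was counted as past the fold where its ratio was at least 1.5, or at most 0.667, in both libraries, among genes with at least 30 UMIs over the 2 cell groups in each library. Of 48 histone genes so measured of 65, 45 were higher and 1 was lower, where 3.63% of all 9958 genes were higher and 1.40% lower. Since the rule itself chose the cells by histone RNA, these values describe the cells and support nothing further.

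**Figure D2:**
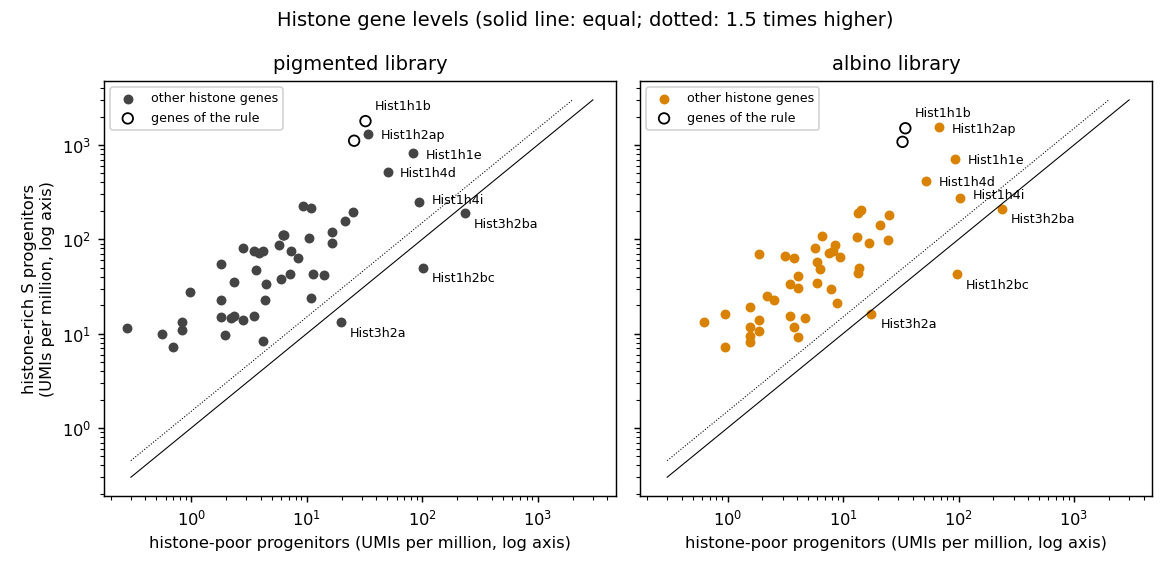
Level of each replication-dependent histone gene in histone-rich S progenitors (y axis) against histone-poor progenitors (x axis), in CPM on log axes, for each library. Filled points are single genes, open circles the genes Hist1h1b and Hist1h2ae of the rule, the solid line is equality and the dotted line a ratio of 1.5. Hist1h2bc, Hist3h2a and Hist3h2ba lie below equality, for example 49.9 against 101 for Hist1h2bc in the pigmented library.

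The genes of the rule stood at 1787 CPM (Hist1h1b) and 1107 CPM (Hist1h2ae) in pigmented and at 1501 and 1078 CPM in albino cells. Hist1h2ap, another H2A gene (chr13:21833026-21833507, minus strand), stood at 1310 CPM in pigmented and 1543 CPM in albino histone-rich S progenitors, and at 33.9 and 68.0 CPM in histone-poor ones. Of the 50-base stretches of Hist1h2ap, 93.1% also occur in another histone gene, so reads of its relatives could have been counted with it. Hist1h1e, a linker histone (chr13:23620629-23622558, minus strand), stood at 812 and 713 CPM against 83.4 and 93.2 CPM. It overlaps Hist1h2be on the same strand, and reads of that stretch cannot be told apart. Hist1h4d, a core H4 gene, stood at 519 and 417 CPM against 50.02 and 52.6 CPM. Hist1h1a and Hist1h1d, further linker histones, had ratios of 24.0 and 19.9 in the pigmented and 14.3 and 14.1 in the albino library. Each of these genes was higher in both libraries, with ratios that differed several-fold between genes.

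A set of 3 histone genes went the other way. Hist1h2bc, an H2B gene (chr13:23684199-23692908, plus strand) with no stem-loop in an annotated transcript, stood at 49.9 CPM in pigmented and 42.4 CPM in albino histone-rich S progenitors, and at 101 and 96.3 CPM in histone-poor ones. Its ratios were 0.492 and 0.440, past the fold, and it stood at 24.6 and 36.0 CPM in ganglion cells. Hist3h2ba, an H2B gene on chromosome 11, stood at 188 and 210 CPM against 234 and 238 CPM, and at 1063 and 1161 CPM in ganglion cells. Hist3h2a, its neighbour (chr11:58954685-58956830, plus strand), stood at 13.2 and 16.1 CPM against 19.6 and 17.6 CPM, and at 123 and 145 CPM in ganglion cells. Neither passed the fold between the progenitor groups, and both were highest in the ganglion cells.

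By family, and without the genes of the rule, 5 linker H1 genes summed to 1371 CPM in pigmented and 1204 CPM in albino histone-rich S progenitors, against 120 and 145 CPM in histone-poor ones. The 17 H2A genes summed to 1843 and 2015 CPM against 95.9 and 132 CPM. The 18 H2B genes, which include Hist3h2ba, summed to 908 and 860 CPM against 399 and 414 CPM, and to 1114 and 1221 CPM in ganglion cells. H3 (12 genes) stood at 531 and 490 CPM against 68.5 and 68.9 CPM, and H4 (13 genes) at 1068 and 977 CPM against 198 and 210 CPM. All 5 families were thus higher, H2B by the smallest ratio. Without the genes of the rule and the gene with too few UMIs, 35 measured genes had the stem-loop in an annotated transcript, of which 33 were higher, and 12 lacked it, of which 11 were higher. Those with it had a median ratio of 7.60 in the pigmented and 6.91 in the albino library, and those without it had 16.7 and 9.28. Many annotated transcripts without it are short, such as Hist1h2bn at 381 bases and Hist1h4k at 312 bases. They can end before the stem-loop, so this split is one of annotation and does not show that these genes lack it. The 2 sets also differed in shared sequence, with a median of 40.1% and 79.7% of 50-base stretches found in another histone gene. The parts of shared sequence and of annotated length in that difference were not tested.

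Origin licensing, which loads the Mcm helicase on DNA before S phase, was partly higher. Of 24 licensing and firing genes, 8 were higher and none was lower than in histone-poor progenitors, with a median log2 ratio of 0.23 in the pigmented and 0.30 in the albino library, beside -0.02 and -0.03 over all genes. The 8 were Cdc6, Gmnn, Mcm10, Cdc45, Gins3, Cdc7, Dbf4 and Ticrr. Cdc6, which loads the helicase, stood at 43.5 CPM in pigmented and 39.2 CPM in albino cells, against 26.8 and 24.5 CPM. Gmnn, the inhibitor that stops a second loading, stood at 354 and 364 CPM against 193 and 185 CPM. Mcm6, a subunit of the helicase, stood at 199 and 201 CPM against 195 and 189 CPM, and Cdt1, the loading factor, at 53.2 and 49.7 CPM against 47.4 and 43.1 CPM. Levels of those last 2 genes were thus close in the 2 cell groups.

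Genes of the replication fork were higher more widely. All 30 measured fork genes had ratios above 1 in both libraries, 11 of them past the fold, and the median log2 ratio was 0.51 in the pigmented and 0.62 in the albino library. Pcna, the sliding clamp of the polymerases, stood at 540 and 536 CPM against 326 and 318 CPM. Lig1, the ligase that joins Okazaki fragments, stood at 300 and 287 CPM against 181 and 149 CPM. Pola1 and Prim2 of the primase complex had ratios of 2.04 and 2.01 in the pigmented and 2.16 and 2.63 in the albino library. Clspn, which ties the fork to the checkpoint, stood at 151 and 143 CPM against 69.6 and 65.5 CPM. Dscc1, of the clamp loader for cohesion, stood at 73.3 and 73.7 CPM against 35.7 and 37.8 CPM. Pclaf, a Pcna partner outside the lists that was chosen after its values were seen, stood at 881 and 953 CPM against 249 and 269 CPM.

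Nucleotide supply and histone handling followed with smaller counts. Of 16 nucleotide genes, 5 were higher and none lower (median log2 ratio 0.42 and 0.48). Rrm2, a subunit of ribonucleotide reductase, stood at 279 and 312 CPM against 133 and 132 CPM, and Tyms, thymidylate synthase, at 263 and 270 CPM against 117 and 117 CPM. Rrm1, Tk1 and Shmt1 were the others. None of 10 measured histone mRNA control genes passed the fold in both libraries. Slbp, the stem-loop binding protein, stood at 238 CPM in pigmented and 261 CPM in albino cells against 162 and 151 CPM, with ratios of 1.47 and 1.73. Of 16 chromatin assembly genes, Asf1b, a histone chaperone (ratios 3.20 and 3.51), and Dnmt1, which copies DNA methylation (1.67 and 1.69), were higher. Of 11 replacement histones, H2afx (2.05 and 2.22) and H1f0 (1.87 and 1.80) were higher and Cenpa, the centromere histone (0.591 and 0.579), was lower.

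Regulators of S-phase entry and of the checkpoint were higher in part. Of 22 G1/S regulators, 8 were higher and 1 lower. Ccne2, a cyclin E that starts S phase (chr4:11191351-11204779, plus strand), stood at 167 CPM in pigmented and 163 CPM in albino cells, against 69.2 and 63.9 CPM, and Ccne1 at 63.8 and 56.0 CPM against 29.0 and 29.0 CPM. Ccna2, the cyclin of later S phase and G2, stood at 92.7 and 84.8 CPM against 26.4 and 29.9 CPM. The repressors E2f7 and E2f8, which turn S-phase genes down again, had ratios of 3.39 and 4.12 in the pigmented and 3.20 and 4.80 in the albino library. E2f2, Cdkn2c and Cdkn2d completed the 8, and Cdkn1a, an inhibitor of cyclin-dependent kinases, was lower at 3.53 and 3.80 CPM against 8.48 and 5.98 CPM. Ccnd1, the cyclin D of retinal progenitors, had ratios of 1.12 and 1.11. Of 17 checkpoint, repair and cohesion genes, 9 were higher and none lower. Esco2, which locks cohesin on sister chromatids during replication (chr14:65819038-65833994, minus strand), stood at 158 and 151 CPM against 15.6 and 18.6 CPM, with a ratio of 10.2 (8.31 to 12.5) and 8.11 (6.18 to 10.8). Brca1, a repair factor, stood at 92.5 and 96.5 CPM against 31.1 and 32.7 CPM.

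Much G2/M RNA was present in these cells as well, although cells with 10 or more UMIs of the 5 mitotic genes had been left out. The 24 other G2/M genes summed to 5510 CPM in pigmented and 5336 CPM in albino histone-rich S progenitors, between 2497 and 2306 CPM in histone-poor progenitors and 11368 and 11646 CPM in progenitors with G2/M RNA. Of the 24, 22 were higher than in histone-poor progenitors. Top2a, the topoisomerase that untangles replicated DNA (chr11:98992943-99024189, minus strand), stood at 633 and 565 CPM against 91.4 and 82.5 CPM, ratios of 6.93 (6.36 to 7.55) and 6.85 (6.01 to 7.83). Nusap1, a spindle protein, stood at 154 and 150 CPM against 18.2 and 14.8 CPM, Kif11, a spindle motor, at 88.1 and 75.01 CPM against 7.50 and 8.50 CPM, and Aurkb, a mitotic kinase, at 117 and 111 CPM against 10.3 and 14.5 CPM. The exceptions were Ccnb2, a mitotic cyclin, at 44.8 and 41.5 CPM against 71.7 and 67.0 CPM, and Cenpa, which both lists hold. Of the genes ranked highest outside the lists, Mxd3, a transcription factor of the Mad family, stood at 25.6 and 24.4 CPM against 2.78 and 1.57 CPM, and Neil3, a DNA glycosylase, at 55.6 and 69.3 CPM against 6.11 and 9.13 CPM.

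**Figure D3:**
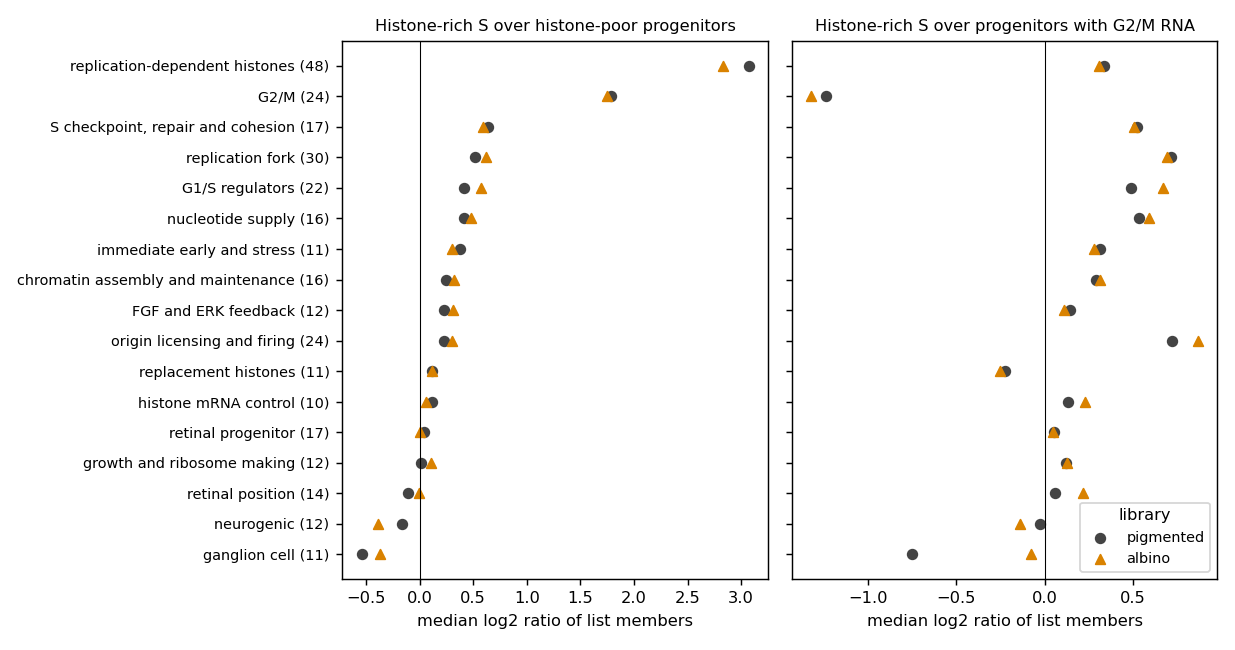
Median log2 ratio of each gene list (x axis) for histone-rich S progenitors over histone-poor progenitors (left) and over progenitors with G2/M RNA (right), with a circle for the pigmented and a triangle for the albino library. Numbers beside the names count the members measured on the left. The histone list lies at 3.07 and 2.83 over histone-poor progenitors, and the G2/M list changes side between the comparisons, from 1.79 and 1.74 to -1.24 and -1.32. The rule parts the groups by histone genes on the left and by mitotic genes on the right, so those values describe the choice of cells.

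Progenitor identity genes barely differed between histone-rich S and histone-poor progenitors. Both groups passed the same limits on Fgf15, Sfrp2, Atoh7, Gja1 and Otx1, so similar levels of progenitor, neurogenic and ciliary margin genes go in part with the choice of cells. None of 17 retinal progenitor genes passed the fold in either direction, with a median log2 ratio of 0.04 and 0.01. Over all 9958 genes 3.63% were higher and 1.40% lower, so the short lists of this paragraph would hold few such genes in any case. Pax6, a master regulator of eye development, stood at 435 CPM in pigmented and 448 CPM in albino cells against 438 and 446 CPM. Hes1, the Notch target that holds cells undifferentiated, stood at 738 and 736 CPM against 774 and 805 CPM. Of 12 neurogenic genes, Dll1, a Notch ligand, was lower at 9.71 and 7.28 CPM against 18.9 and 17.3 CPM. Of 14 retinal position genes, Aldh1a1, a retinoic acid enzyme of dorsal retina, was lower at 148 and 210 CPM against 226 and 336 CPM. Its ratios were 0.652 and 0.624. Of 11 immediate early genes, Klf6, a zinc finger factor, was higher (1.58 and 1.51). None of 12 genes of FGF signalling and its feedback, 12 growth genes and 6 ciliary margin genes passed the fold. Among genes outside the lists, Fgfbp3, an FGF binding protein, stood lower at 27.8 and 19.9 CPM against 54.3 and 46.3 CPM, Idh1, an isocitrate dehydrogenase, at 54.5 and 53.8 CPM against 92.8 and 93.5 CPM, and Kdm5b, a histone demethylase, at 33.3 and 35.4 CPM against 60.2 and 63.9 CPM. Of 6 mesenchyme markers, 3 were measured and higher, at summed levels of 57.8 and 42.7 CPM against 16.5 and 14.5 CPM, and 1 cell held 24.4% and 36.3% of those UMIs.

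Against progenitors with G2/M RNA, replication genes stood higher. Of 9690 genes, 3.81% were higher and 2.15% lower. Of 24 licensing genes, 13 were higher and Dbf4 was lower, and of 30 fork genes, 16 were higher and none lower. Ccne2 stood at 167 and 163 CPM against 20.02 and 21.7 CPM, with a ratio of 8.35 (6.89 to 10.2) and 7.54 (5.80 to 9.96). Cdc6 stood at 43.5 and 39.2 CPM against 5.21 and 4.81 CPM. Ung, which removes uracil from DNA, stood at 55.8 and 63.9 CPM against 9.44 and 7.91 CPM, and Chaf1b, of the chromatin assembly factor at the fork, at 79.9 and 90.2 CPM against 19.7 and 20.3 CPM. Slbp (1.68 and 2.14) and Casp8ap2 (1.59 and 1.72), 2 of 10 histone mRNA control genes, were higher. Histones differed less, with 8 of 51 higher and a summed ratio of 1.31 (1.29 to 1.34) and 1.28 (1.26 to 1.31). Of 24 G2/M genes, 21 were lower. Since the mitotic genes of the rule part these groups, that count describes the choice of cells and supports nothing further. Outside the lists, Tuba1c, an α-tubulin, stood at 7.28 and 6.65 CPM against 102 and 122 CPM.

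Within the histone-rich S progenitors, cells were split into 3 tiers by UMIs of the rule's histone pair per 10000 UMIs, at 15.0 and 37.4. The low tier had 144 pigmented and 106 albino cells, the middle 141 and 108, and the high tier 164 and 86. Other histones, not used for the split, stood at 1912, 6358 and 8815 CPM from low to high in the pigmented library and at 2325, 6223 and 9085 CPM in the albino library. G2/M genes also climbed from low to high, at 3478, 5807 and 7197 CPM and at 3602, 5541 and 7442 CPM. Top2a stood at 270, 674 and 946 CPM and at 306, 592 and 884 CPM. Ung went the opposite way, at 88.8, 51.8 and 27.8 CPM and at 92.8, 56.0 and 34.6 CPM. Hist3h2ba did not follow its family, at 191, 176 and 196 CPM and at 208, 216 and 206 CPM. The licensing list went opposite ways in the libraries, at 2217, 2345 and 2363 CPM in the pigmented library and at 2404, 2401 and 2138 CPM in the albino library. Median depth of the tiers was 9943.5, 9157 and 9658 UMIs and 10242.5, 9443 and 9978.5 UMIs. The split divides by a cell's depth, so these medians do not show how depth goes with histone RNA. Other histones were 4.61 (pigmented) and 3.91 (albino) times as high in the high as in the low tier. With cells thinned to 5000 UMIs and gated anew, these ratios were 2.15 and 2.21. The part of depth in the tier levels was not tested.

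**Figure D4:**
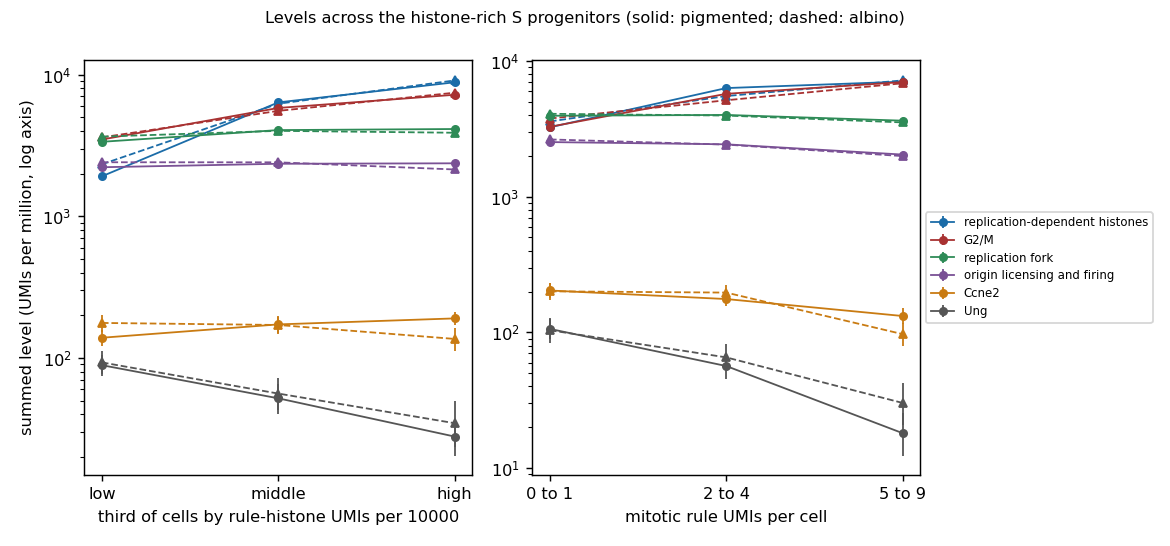
Summed levels of 4 gene lists and levels of Ccne2 and Ung (y axis, CPM, log axis) across histone-rich S progenitors split by rule-histone UMIs per 10000 UMIs (left) and by mitotic UMIs of the rule (right), solid for pigmented and dashed for albino, with 95% counting intervals. Other histones and G2/M genes climb across the tiers in both libraries, and Ung drops from 88.8 to 27.8 in the pigmented and from 92.8 to 34.6 in the albino library. The left split is by histone genes, so the climb of other histones there describes the split.

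A split by the mitotic genes of the rule gave another order. Cells with 0 to 1, 2 to 4 and 5 to 9 mitotic UMIs numbered 125, 167 and 157 in the pigmented and 99, 110 and 91 in the albino library, with median depths from 9120 to 10382 and from 9186 to 11102 UMIs. Ccne2 stood at 204, 176 and 132 CPM and at 201, 196 and 97.1 CPM. Cdc6 stood at 61.0, 46.3 and 28.05 CPM and at 54.7, 43.7 and 21.99 CPM. Ung stood at 106, 56.6 and 18.1 CPM and at 104, 65.5 and 30.2 CPM. The licensing list went from 2522 to 2041 CPM and from 2637 to 1989 CPM. Other histones went from 3240 to 7024 CPM and from 3578 to 7176 CPM. So the cells with the fewest mitotic UMIs had the most Ccne2, Cdc6 and Ung and the least histone RNA in both libraries. The mitotic split also goes with depth, whose part in these levels was not tested.

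The histone-poor progenitors were not uniform either. Those with 1 to 2 UMIs of the pair had 1985 CPM of licensing genes in the pigmented library and 1919 CPM in the albino library, against 1746 and 1615 CPM in those with none. Fork genes stood at 2746 and 2794 CPM against 2455 and 2221 CPM. Other histones stood at 936 and 1021 CPM against 840 and 923 CPM, far under the 5720 and 5547 CPM of the histone-rich cells.

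Replication genes differed little between albino and pigmented histone-rich S progenitors. Of 53 histone genes, none was at least 1.5 times higher and 3 (Hist1h2bl, Hist1h2bf and Hist1h2ad) were at least 1.5 times lower in albino cells, where 2.34% of 10312 genes were higher and 4.03% lower. Those 3 genes stood between 5.52 and 15.0 CPM in pigmented and between 3.48 and 9.18 CPM in albino cells. The summed histone level was 5547 CPM in albino and 5720 CPM in pigmented cells, a ratio of 0.970 (0.951 to 0.988). Median log2 ratios were -0.14 for histones and -0.06 for G2/M genes, beside -0.03 over all genes. The progenitor sum was 4204 and 4234 CPM.

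Immediate early genes, which respond within minutes to signals and to handling of cells, stood mostly lower in albino cells. Of 11 measured, 10 had a ratio below 1 and 2 passed the fold. Fos, a transcription factor of the AP-1 complex (chr12:85473890-85477273, plus strand), stood at 608 CPM in pigmented and 364 CPM in albino histone-rich S progenitors, a ratio of 0.598 (0.558 to 0.641). The ratio for Fos was 0.706 in histone-poor progenitors, 0.639 in those with G2/M RNA and 0.516 in ganglion cells. Fosb, a relative, stood at 232 and 133 CPM, with a ratio of 0.573 (0.510 to 0.642), and at 0.667, 0.602 and 0.399 in the same 3 groups. Jun, the partner of Fos, stood at 410 and 313 CPM. The whole list summed to 3806 and 3116 CPM, with a ratio of 0.819 (0.799 to 0.839), and to ratios of 0.858 and 0.875 in the other progenitor groups. In ganglion cells the whole list had a ratio of 0.942 (0.924 to 0.961), nearer to 1 than in the progenitor groups.

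**Figure D5:**
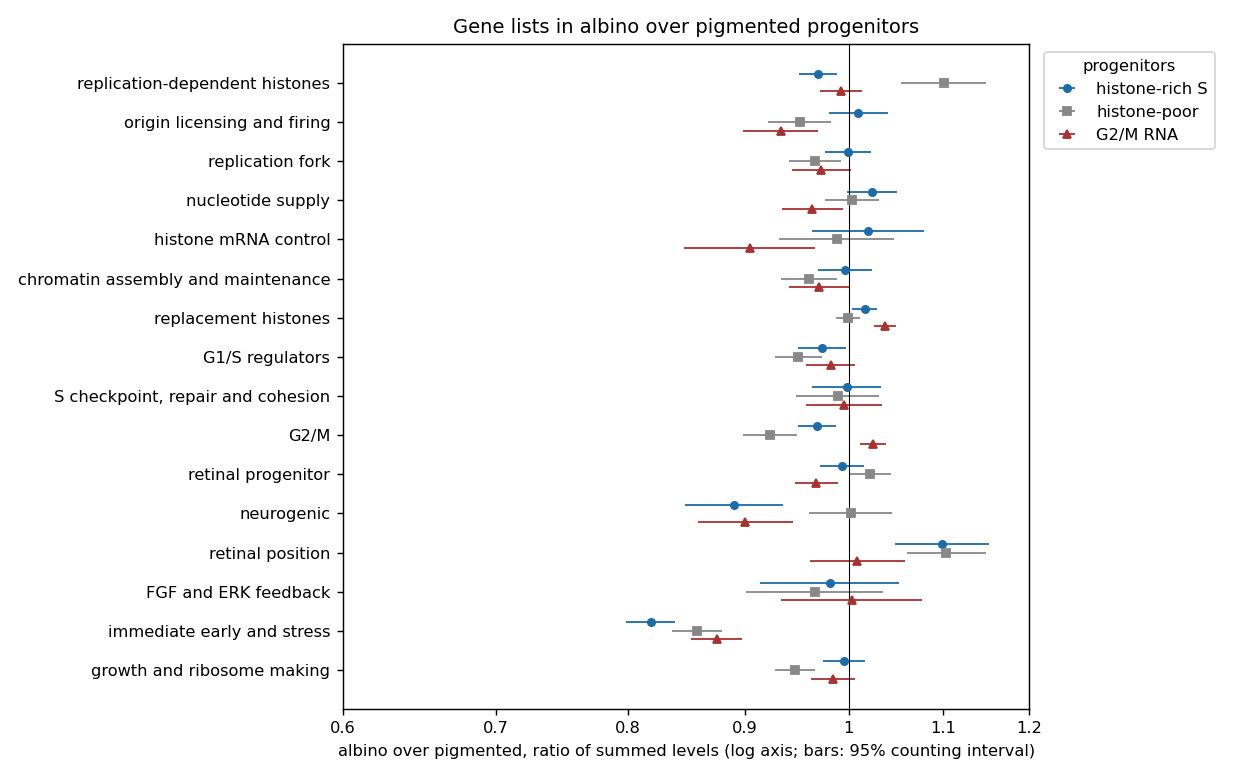
Ratio of summed levels, albino over pigmented (x axis, log), for each gene list but the ganglion cell list, with a point for each of the 3 progenitor groups and bars for the 95% counting interval. The immediate early list lies at 0.819, 0.858 and 0.875 in the 3 groups, and the fork list near 1.

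Neurogenic genes, which mark exit from the cycle, also stood mostly lower in albino cells. Of 12, 11 had a ratio below 1 and Neurod1, Gadd45g and Mfng passed the fold. Neurod1, a proneural factor, stood at 17.4 CPM in pigmented and 7.28 CPM in albino cells, a ratio of 0.417 (0.2503 to 0.671). Gadd45g, a growth arrest gene, stood at 13.9 and 2.85 CPM, with a ratio of 0.205 (0.0895 to 0.414). The list summed to 909 and 810 CPM, with a ratio of 0.890 (0.847 to 0.936), and to ratios of 1.002 in histone-poor progenitors and 0.901 in those with G2/M RNA. Thinning all cells to 5000 UMIs brought the median log2 ratio of the list from -0.30 to -0.05. Aldh1a1 stood at 148 CPM in pigmented and 210 CPM in albino cells, a ratio of 1.42. Of the ganglion cell list, 6 of 11 genes were at least 1.5 times higher in albino cells, where 2.34% of all genes were. The summed ratio was 1.41 (1.30 to 1.54). A single cell in each library held 521 of 1127 pigmented and 504 of 1110 albino UMIs of that list, and without those cells the ratio was 1.44 (1.28 to 1.61). The median cell held 1 UMI of the list in both libraries. Its summed ratio was 1.17 in histone-poor progenitors, 0.981 in those with G2/M RNA and 1.15 in ganglion cells. Kept cells outside the 3 progenitor groups also had more of this RNA if albino (8282 CPM) than if pigmented (5127 CPM). Whether the difference is particular to histone-rich S progenitors was not tested.

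Some of the single genes rested on few cells. Ubash3a had the highest ratio, 22.2, and 1 albino cell held 98.4% of its UMIs. Without the top cell of each library the ratio was 1.43. Zbtb25, a zinc finger gene, stood at 11.5 and 23.4 CPM, with a ratio of 2.04 (1.41 to 2.97), against 0.987 and 1.02 in the other progenitor groups, and 4.05% of its albino UMIs came from 1 cell. Tmem245, a membrane protein gene, stood at 101 and 47.8 CPM, with a ratio of 0.473 (0.391 to 0.569), with 0.393 in histone-poor progenitors.

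The libraries also differed in sex. Xist, the RNA of the inactive X chromosome, was found without Y-linked RNA in 25.4% of pigmented and 98.3% of albino histone-rich S progenitors, and Y-linked RNA without Xist in 44.1% and 0%. Cells with Xist and no Y-linked RNA were also taken alone, which left 114 pigmented histone-rich S progenitors. Among them the median log2 ratio of the immediate early list was -0.34, that of Fos -0.80 and that of histones -0.11. The ganglion cell list turned from 0.59 to -0.81. Before this limit 1 pigmented cell held 46.2% of the pigmented UMIs of that list. The parts of sex and of single cells in that turn were not tested. The share of histone-rich S progenitors among such pigmented progenitors was 21.97%.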

How the data were processed

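RNA of single cells was measured in 1 pigmented and 1 albino droplet library. The deposited tables are raw counts of UMIs for every gene in every barcode. Cell Ranger 2.1.1 and mm10 are named in the submitters' processing notes and version 5.0.1 in the deposited matrix headers, and which made the counts was not settled. Barcodes had been selected before deposit. Groups came from the sample titles.

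Cells were gated as the report states, and no clustering was used. Doublets called by Scrublet (in Scanpy 1.11.5, threshold 0.25, set after the scores were seen) were 138 pigmented and 50 albino cells, and were left in. UMIs were summed over the cells of a group and library and given as CPM. Shares have Clopper-Pearson, levels exact Poisson and ratios conditional exact 95% intervals, and ratios of shares a log approximation. Log2 ratios add 1 UMI per group. With 1 library per group no test was run. UMIs of 1 library are not replicates. The scripts were tested on simulated data.

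Named genes are those of the rule, histone genes with at least 50 UMIs, the 10 highest and 10 lowest by the interval bound nearest to 1 in each comparison (at least 50 UMIs; mitochondrial, ribosomal, sex, gene-model and histone genes left out), and of each list the members with most UMIs and those past the fold. Further members, among them Mcm6, Cdt1 and Ccnd1, were added for their role. Some items are not reported here. The cells, lists and tests were chosen with earlier results of these data known, and the ganglion cell group was added after the data were seen. Gene positions are from GENCODE M21 and promoters from RefSeq. Alternatives were other depth, gene, mitochondrial, histone and UMI limits, doublets removed, 1 sex, equal weights and another scaling. The scripts ran under matplotlib 3.10.9, pandas 2.3.3, SciPy 1.17.1, NumPy 2.4.6 and Python 3.11.15.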

Additional observations from a re-analysis of the deposited data

Results flagged for a closer look

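Of 431 genes and 24 lists examined, 3 had ratios whose 95% counting intervals lay wholly on opposite sides of 1 in the 2 libraries, each library being 1 sample. Other genes and lists had ratios on opposite sides of 1 with an interval that reached 1. These differences were not tested. Olfr889, an olfactory receptor gene, was 3.24 times as high in histone-rich S as in histone-poor progenitors in the pigmented library and 0.311 times in the albino library, and 1 pigmented cell held 38.1% of its UMIs among the histone-rich cells. Onecut2, a transcription factor of retinal neurons, had ratios of histone-rich S progenitors over those with G2/M RNA of 0.669 in the pigmented and 1.74 in the albino library. The summed growth and ribosome making list had ratios of histone-rich S over histone-poor progenitors of 0.979 in the pigmented and 1.03 in the albino library.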

How the results depend on the processing

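The albino share of histone-rich S progenitors was above the pigmented share under every alternative run, with a log2 ratio of 0.31 to 0.44 among progenitors and 0.10 to 0.21 among kept cells, or 0.63 (0.39 in the report) and 0.39 (0.16) among cells with Xist and no Y-linked RNA. Levels of the shares moved with the gates. Thinned to 5000 UMIs, they were 31.1% and 9.71% in the pigmented library (progenitors and kept cells) and 38.6% and 10.4% in the albino library. With a histone limit of 2 UMIs they were 31.0% and 9.14%, and 39.8% and 10.0%. With a limit of 6 they were 20.4% and 6.02%, and 27.7% and 6.98%. Among cells with Xist they were 21.97% and 6.68% in the pigmented library. The ratio of other histones between the high and low tier, 4.61 and 3.91, became 2.15 and 2.21 after thinning, 7.61 and 6.15 at the limit of 2, 2.30 and 2.28 at 6, 3.80 and 3.39 at 3 UMIs per 10000, and 4.88 and 4.10 among cells with Xist. Counts of genes past the fold moved most with the UMI minimum. With at least 1 UMI, 1047 were higher and 918 lower against histone-poor progenitors, 1341 and 671 against those with G2/M RNA, and 1994 and 2632 in albino over pigmented cells. With at least 100 UMIs, 232 and 40 passed against histone-poor progenitors, 165 were higher against those with G2/M RNA, and 47 and 88 passed in albino over pigmented cells. With 5 UMIs added, 70 were lower against histone-poor progenitors and 161 lower in albino cells. Among cells with Xist, 86 were lower against histone-poor progenitors and 395 higher in albino cells. These log2 ratios changed sign: after thinning, Myo1c over G2/M progenitors in the albino library (-0.80), and in albino over pigmented cells Ccdc163 (-0.12) and Twist1 (-0.13). Among cells with Xist, the ganglion cell list over G2/M progenitors (1.33, pigmented) and in albino over pigmented cells (-0.81), Myo1c over G2/M progenitors (-1.08, pigmented) and in albino over pigmented cells (3.43), Ina (-0.60) and Stmn2 (-0.79) did so. Without its top cell, an alternative chosen after seeing the data, Ccdc163 had -0.35. The cause was not tested. No paired analysis was possible because each group is 1 library and the labels give no shared replicate numbers, and no library could be left out for the same reason. At these depths genes under 30 UMIs over 2 groups were not compared.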
